A study of Mus musculus with 8 samples.

Results

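Nucleolar ribosome biogenesis factors were described across 8 hind-limb undifferentiated pleomorphic sarcomas (UPS) of mice, for 10 genes chosen by name from the 26667 genes counted. The genes were Ncl, Npm1, Fbl, Nop56, Nop58, Dkc1, Nolc1, Bop1, Pes1 and Wdr12, and all 10 were found and passed the filter on low counts. Both KP and KPH2 mice carried Trp53 fl/fl, so that the loss of Trp53 was shared by the groups, and KPH2 mice carried Epas1 fl/fl in addition. Epas1 encodes HIF-2α, a hypoxia-inducible transcription factor, and the samples were labelled wild type (KP 5 to KP 8) or Epas1 -/- (KPH2 1 to KPH2 4). Tumours were started by injecting adenovirus expressing Cre (Ad-Cre) into the gastrocnemius of male and female mice of 8 weeks or older, on a mixed 129/C57BL/6 background. Ad-Cre recombines whichever cells it enters, and the tumour sections taken for RNA can also hold stroma and host muscle with unrecombined alleles. The share of such cells was not measured in these libraries. Each library came from 1 tumour, and the question was how HIF-2α loss alters expression in these tumours.

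Ribosome production starts in the nucleolus, where RNA polymerase I makes a long precursor, the 45S pre-rRNA. Small nucleolar ribonucleoproteins (snoRNPs) then modify and fold it, and assembly factors cut it and load ribosomal proteins to form the small and large subunits. MYC is a known activator of the genes for these factors, binding E-box motifs near their start sites, and their levels are commonly high in growing tumours. Among the 10 genes, Ncl and Npm1 encode abundant nucleolar matrix proteins, Fbl, Nop56 and Nop58 the core of box C/D snoRNPs, Dkc1 the pseudouridine synthase of box H/ACA snoRNPs, Nolc1 a snoRNP chaperone, and Pes1, Bop1 and Wdr12 the PeBoW complex of large-subunit maturation.

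The 3 promoter stretches below cover the canonical and variant E-boxes nearest a start site among the 7 factors with a promoter window, beside Ncl, which had neither form. They run from 100 bases before to 30 bases after the RefSeq start site on GRCm38.p6, 5′ to 3′ on the gene's strand. Only the canonical and variant forms defined below are in capitals, and other E-box forms were not searched for. They lie at chr11:3963875-3964004 (plus strand, Pes1), chr19:46075747-46075876 (plus strand, Nolc1) and chr1:86359426-86359555 (minus strand, Ncl).
Pes1: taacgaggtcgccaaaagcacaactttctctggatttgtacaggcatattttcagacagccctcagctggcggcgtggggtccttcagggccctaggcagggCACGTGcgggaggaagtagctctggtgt
Nolc1: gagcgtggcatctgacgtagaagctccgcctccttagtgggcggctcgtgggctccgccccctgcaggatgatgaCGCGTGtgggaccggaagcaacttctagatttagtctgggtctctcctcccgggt
Ncl: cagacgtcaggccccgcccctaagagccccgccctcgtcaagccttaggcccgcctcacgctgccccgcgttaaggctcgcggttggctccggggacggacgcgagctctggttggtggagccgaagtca
The canonical E-box (CACGTG, its own reverse complement) began at base 3 after the Pes1 start. The variant E-box (CACGCG or its reverse complement CGCGTG, whose letters differ from the canonical form so that no site counted under both) began 25 bases before the Nolc1 start and 247 bases before the Pes1 start. In windows of 300 bases (250 before to 50 after the start), 1 of the 7 factors with a window held the canonical form. It was in 8.09% of the 27025 genes with a window, and in 11.6% of the 10181 tested genes that had a window. The variant was in 2 of 7, against 10.5% and 19.0%. A match is a description of the letters and not a bound site.

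Read counts per tumour ran from 6463221 to 13155510, and a factor's own counts from 107 (Fbl in KP 7) to 11254 (Npm1 in KPH2 1). Levels are given as CPM, counts divided by the library size after TMM scaling over all 8 tumours. Epas1 was at 59.1, 83.0, 86.7 and 83.9 CPM in KP 5 to KP 8, at 32.6 in KPH2 1 and at 53.3, 37.7 and 42.4 in KPH2 2 to KPH2 4. Every KPH2 tumour thus lay below every KP tumour, with a log2 fold change of -0.81 ± 0.19 (SE, 4 against 3) that missed the threshold in edgeR (adjusted p = 0.0742). DESeq2 called it over the same tumours (-0.81, adjusted p = 0.0115), as did edgeR without KP 5 (-0.92, adjusted p = 0.0442), whereas without any other single tumour edgeR did not (adjusted p of 0.127 to 0.219). With KPH2 1 included the log2 fold change was -0.91 ± 0.19 (edgeR adjusted p = 0.117). KPH2 1 is shown apart because it has no column in the authors' 7-tumour table. The study set aside 1 knockout tumour as a technical outlier in a principal component analysis of raw counts. Whether the levels of KPH2 1 reflect the tumour or its library was not tested. The comparison of KP with KPH2 therefore rests on the other 7 tumours and was repeated with all 8.

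None of the 10 factors passed the test between KP and KPH2 tumours. All 10 fitted log2 fold changes (KPH2 minus KP) were positive, between 0.07 (Npm1) and 0.37 (Fbl), with a median of 0.21 beside -0.02 over all genes tested. Positive values made up 48% of all 14867 genes tested. In edgeR, adjusted p ran from 0.274 to 0.827 for the factors, whereas 292 genes, or 1.96% of those tested, had an adjusted p under 0.05. Unadjusted p was under 0.05 for 2 factors, Fbl and Nolc1, where 8.5% of all genes were higher in KPH2 at that level. DESeq2 called no factor, against 5.4% of 21743 genes, and 0 factors had an unadjusted p under 0.05, where 6.58% of genes were higher in KPH2 at that level. With limma on the rlog values no factor was called, against 0.787% of genes, and 2 were higher at an unadjusted p under 0.05, against 9.54%. Fbl and Nolc1 were also the 2 factors for which every KPH2 tumour exceeded every KP tumour, which held for 8.73% of genes.

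Including KPH2 1 gave all 10 factors positive log2 fold changes again, between 0.19 (Bop1) and 0.50 (Nolc1), with a median of 0.38 beside 0.01 over all genes. Positive values made up 50.9% of 14805 genes. None was called, with edgeR adjusted p from 0.243 to 0.604, and 1 gene in all (0.00675%) was called in that fit. Unadjusted p was under 0.05 for 3 factors, Fbl, Nolc1 and Nop58, against 6.65% of genes higher in KPH2. Fbl and Nolc1 again had groups that did not overlap, against 3.76% of genes. The median for the factors was thus 0.21 without KPH2 1 and 0.38 with it, while Bop1 was the 1 factor whose estimate was smaller with KPH2 1 included (0.22 without it).

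**Figure D1:**
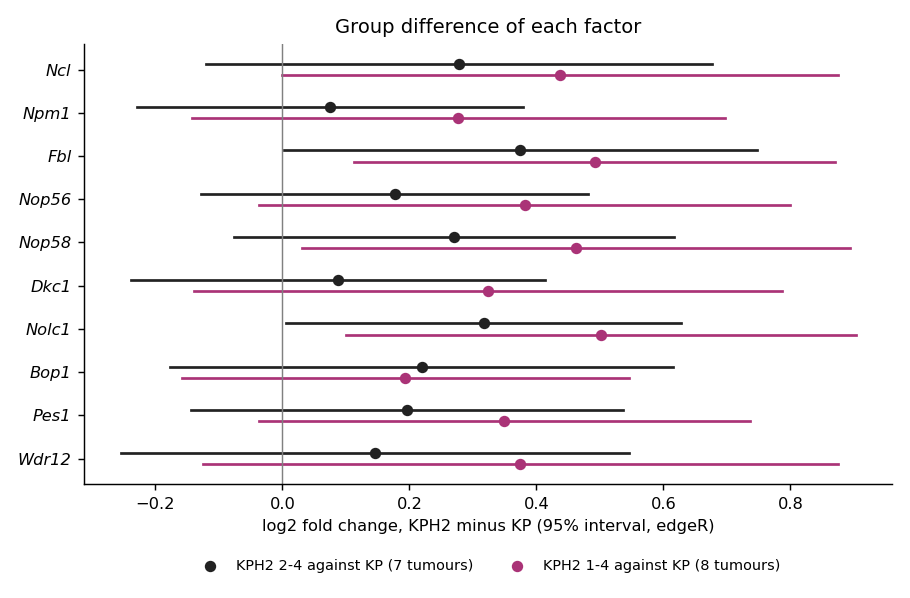
Log2 fold change (KPH2 minus KP, horizontal axis) of each factor with its 95% interval from edgeR, for 7 tumours (black) and for all 8 (purple). All points lie to the right of 0, and the 7-tumour intervals of 8 factors hold 0.

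Nucleolin (Ncl), which binds pre-rRNA and acts in chromatin and ribosome assembly, was at 426, 301, 409 and 414 CPM in KP 5 to KP 8. It was at 529, 407 and 475 CPM in KPH2 2 to KPH2 4 and at 687 in KPH2 1. KP 6 was the lowest tumour and the groups overlapped, since KPH2 3 lay below 3 KP tumours. The log2 fold change was 0.28 ± 0.17 (SE, 4 against 3, edgeR adjusted p = 0.459), with a 95% interval from -0.12 to 0.68.

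Nucleophosmin (Npm1), a histone chaperone and nuclear export factor of ribosomal particles, was at 512, 560, 504 and 557 CPM in the KP tumours. The 3 KPH2 tumours had 591, 548 and 547 CPM, and KPH2 1 had 898. Those 7 tumours lay within 1.17 times of one another, the narrowest range among the factors, and KPH2 1 exceeded the highest of them 1.52 times. The log2 fold change was 0.07 ± 0.13, with an interval from -0.23 to 0.38 (edgeR adjusted p = 0.827).

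Fibrillarin (Fbl), the methyltransferase of box C/D snoRNPs, was at 17.9, 18.1, 15.8 and 18.2 CPM in KP 5 to KP 8. In KPH2 2 to KPH2 4 it was at 25.1, 19.5 and 23.7 CPM, and in KPH2 1 at 30.3. All KPH2 tumours were above all KP tumours, with KPH2 3 nearest to them. Means were 17.5 ± 1.13 (SD, n = 4) and 22.8 ± 2.92 (SD, n = 3), a ratio of 1.30. The log2 fold change of 0.37 ± 0.16 had an interval from 0.00 to 0.75 and an edgeR adjusted p of 0.278. Of the 100-base stretches of its transcript, 59.9% also occur in transcripts of other annotated loci, so reads from them align to several places and were not counted, and Fbl values are uncertain for that reason.

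Nop56 and Nop58 are paired scaffold proteins of the box C/D particle. Nop56 was at 90.5, 101, 85.1 and 90.3 CPM in the KP tumours, at 114, 94.98 and 102 CPM in the 3 KPH2 tumours and at 167 in KPH2 1. KP 6 lay above KPH2 3, so the groups overlapped (log2 fold change 0.18 ± 0.13, edgeR adjusted p = 0.544). For Nop56, 32.0% of 100-base stretches are shared with other loci, and for Npm1 22.1%. Nop58 was at 86.9, 73.0, 88.7 and 105 CPM in KP 5 to KP 8, at 110, 103 and 108 CPM in KPH2 2 to KPH2 4 and at 167 in KPH2 1. Only KP 8 reached the KPH2 range, and the log2 fold change was 0.27 ± 0.15 (edgeR adjusted p = 0.405). The ratio of Nop56 to Nop58 CPM was 1.06 ± 0.23 over the 4 KP tumours (SD), and over KPH2 2 to KPH2 4 it was 0.970 ± 0.060 (SD), and KPH2 1, at 0.995, lay within the range of the other 7.

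Dyskerin (Dkc1), whose gene is on the X chromosome, was at 82.1, 81.3, 62.9 and 76.0 CPM in the KP tumours. It was at 83.5, 77.9 and 79.98 CPM in the 3 KPH2 tumours and at 137 in KPH2 1. Apart from KPH2 1, the tumours were close, with KP 7 the lowest. The log2 fold change was 0.09 ± 0.14 (edgeR adjusted p = 0.807), and it was -0.03 when a skeletal muscle score was added to the model.

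Nolc1, which escorts snoRNPs between the nucleolus and Cajal bodies, was at 61.4, 70.6, 77.0 and 65.4 CPM in KP 5 to KP 8. It was at 91.1, 83.0 and 82.2 CPM in KPH2 2 to KPH2 4 and at 132 in KPH2 1. No KP tumour reached the lowest KPH2 tumour. Means were 68.6 ± 6.75 (SD, n = 4) and 85.5 ± 4.93 (SD, n = 3), a ratio of 1.25. The log2 fold change was 0.32 ± 0.14, with an interval from 0.01 to 0.63 (edgeR adjusted p = 0.274).

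The 3 PeBoW genes differed in how KPH2 1 ranked. Pes1 was at 72.0, 68.1, 64.4 and 72.4 CPM in the KP tumours, at 94.3, 72.7 and 71.2 CPM in KPH2 2 to KPH2 4 and at 115 in KPH2 1. Wdr12 was at 38.6, 30.2, 30.05 and 42.6 CPM in KP, at 41.2, 35.9 and 40.7 CPM in the 3 KPH2 tumours and at 66.0 in KPH2 1. Bop1 was at 48.5, 41.1, 55.1 and 50.7 CPM in KP, at 68.1, 54.7 and 47.8 CPM in the 3 KPH2 tumours and at 52.8 in KPH2 1. KPH2 1 was thus the highest of 8 tumours for Pes1 and Wdr12 but ranked 4 for Bop1, for which KPH2 2 was highest. The ratio of Bop1 to Pes1 was 0.460 in KPH2 1, below the 0.604 to 0.855 of the other tumours, whereas the ratio of Wdr12 to Pes1, 0.576, was within their range of 0.437 to 0.589. Log2 fold changes over 7 tumours were 0.20 ± 0.15 for Pes1, 0.15 ± 0.18 for Wdr12 and 0.22 ± 0.17 for Bop1 (edgeR adjusted p of 0.548, 0.721 and 0.564). Scx, a transcription factor gene of tendon cells, lies inside Bop1 on the opposite strand at chr15:76457411-76459468. It had 35 to 105 counts in KP, 75 to 284 in KPH2 2 to KPH2 4 and 405 in KPH2 1. The strand setting of the counting is not given in the sources used here, and the part of Scx in the Bop1 counts was not tested.

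**Figure D2:**
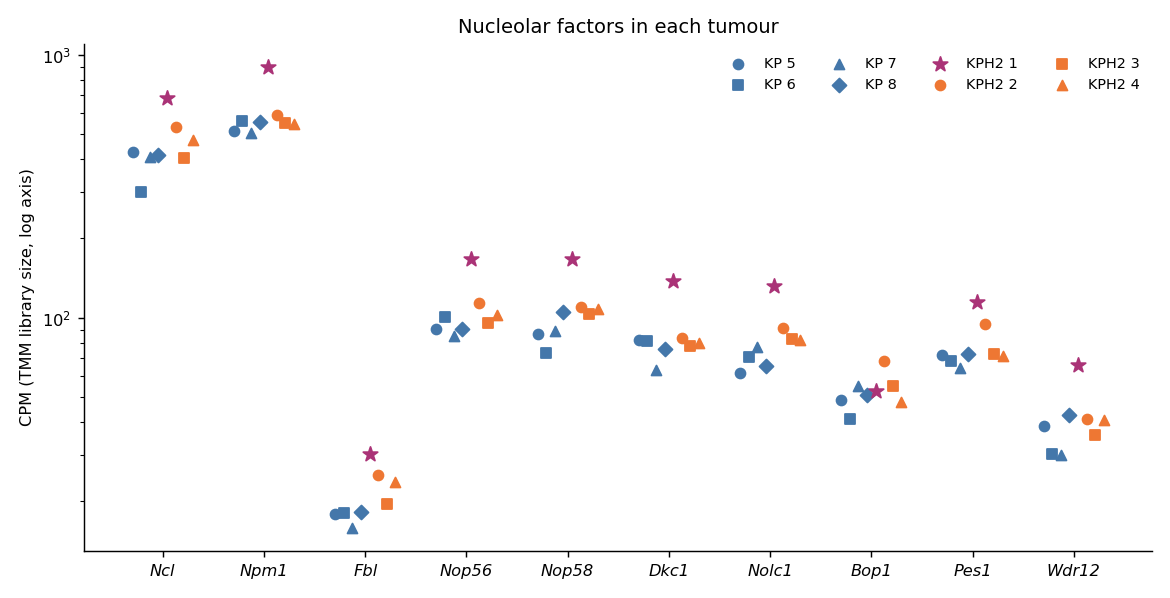
CPM of each factor (vertical log axis) in every tumour, with KP in blue, KPH2 2 to KPH2 4 in orange and KPH2 1 as a purple star. KPH2 1 is the highest tumour for all factors except Bop1, and the groups separate for Fbl and Nolc1.

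KPH2 1 had the highest CPM of the 8 tumours for 9 of the 10 factors, where 17.7% of all genes tested were highest in that tumour. Its level over the mean of the other 7 was 1.53 for Fbl, 1.56 for Pes1, 1.63 for Ncl and 1.65 for Npm1. For Nop56, Nop58, Nolc1, Dkc1 and Wdr12 it was between 1.72 and 1.78, and for Bop1 it was 1.01. The median ratio was 1.68 for the factors and 0.986 over all genes. Without KPH2 1, the highest tumour was KPH2 2 for 9 factors, where 15.2% of genes were highest in KPH2 2, and KP 8 for Wdr12. KPH2 2 exceeded all 4 KP tumours for 9 factors, against 24.6% of genes, KPH2 4 for 5 factors, against 21.2%, and KPH2 3 for 3 factors, against 22.2%. The lowest level was in KP 7 for 6 factors, in KP 6 for 3 and in KP 5 for Nolc1. Without KPH2 2 the median log2 fold change over the factors was 0.11, the lowest when any 1 of the 7 tumours was left out. Single tumours moved the estimates of 7 factors by over 1.5 times, though none changed sign. Without KPH2 2 the log2 fold change was 0.11 for Nop56, 0.06 for Pes1, 0.07 for Bop1 and 0.04 for Npm1. Without KP 6 it was 0.17 for Ncl, 0.14 for Bop1 and 0.08 for Wdr12, and without KP 7 it was 0.01 for Dkc1, 0.05 for Npm1 and 0.07 for Wdr12. It was larger for Wdr12 without KP 8 (0.25), for Dkc1 without KP 5 (0.14) and for Bop1 without KPH2 4 (0.33). Estimates for Fbl, Nolc1 and Nop58 moved less.

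Rn45s, the row named for the 45S precursor, was taken as a share of all counts. The precursor contains the sequences of the mature rRNAs, so this row does not measure precursor alone. It took 2.27%, 1.08%, 2.79% and 2.20% of counts in KP 5 to KP 8, 9.83%, 4.98% and 3.58% in KPH2 2 to KPH2 4 and 6.71% in KPH2 1. Each KPH2 tumour had a larger share than any KP tumour. The means were 2.08% ± 0.721 (SD, n = 4) and 6.13% ± 3.28 (SD, n = 3), a ratio of 2.94, and the difference was larger than in any other split of the 7 tumours (exact permutation test, two-sided, p = 0.0286, the smallest p the design allows). With KPH2 1 the KPH2 mean was 6.28% ± 2.69 (SD, n = 4) and the exact permutation p was again 0.0286. When any 1 of the 7 tumours was left out, the smallest p possible was 0.0667 or 0.1, and without KPH2 2 the difference was 2.20 percentage points in place of 4.05. Across all genes, edgeR gave Rn45s a log2 fold change of 1.65 ± 0.48 (adjusted p = 0.124), and DESeq2 gave it an adjusted p of 0.00498. Without KPH2 2 the edgeR log2 fold change was 1.04 (adjusted p = 0.344). Ribosomal RNA was depleted from these libraries with Ribo-Zero Gold. The amount of precursor and mature rRNA left by incomplete depletion therefore cannot be told apart in Rn45s. Rn18s, the row for the mature 18S rRNA, ran from 0.0276% to 0.0867% of counts in KP, from 0.104% to 0.567% in KPH2 2 to KPH2 4 and was 0.354% in KPH2 1 (exact permutation p = 0.0286 over 7 tumours). The ratio of mean Rn18s shares over 7 tumours was 5.93, larger than the 2.94 of Rn45s.

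Side by side, the factors and Rn45s did not rank the KPH2 tumours alike. The mean centred log2 CPM of the 10 factors was -0.15, -0.24, -0.22 and -0.09 in KP 5 to KP 8, 0.17, -0.06 and 0.00 in KPH2 2 to KPH2 4 and 0.60 in KPH2 1. KPH2 1 was first for the factors and second for the Rn45s share, where KPH2 2 was first, and KPH2 4 was above KPH2 3 for the factors but below it for Rn45s. All KPH2 tumours were above all KP tumours in both, although KPH2 3 and KP 8 differed for the factors by less than the SD of 0.12 among KPH2 2 to KPH2 4. Together the factors took 0.133% to 0.156% of counts in KP, 0.149% to 0.165% in KPH2 2 to KPH2 4 and 0.235% in KPH2 1. Removing Rn45s before normalization left the median log2 fold change of the factors at 0.22.

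Myc, the transcription factor gene tied to this programme, was at 67.4, 64.4, 88.2 and 51.1 CPM in KP 5 to KP 8, at 83.6, 49.4 and 56.4 CPM in KPH2 2 to KPH2 4 and at 256 in KPH2 1. Its level in KPH2 1 was 3.90 times the mean of the other 7 tumours. Among those 7 the groups overlapped, with a log2 fold change of -0.10 ± 0.24 (edgeR adjusted p = 0.873). That value was 0.05 without KP 7 or without KPH2 3, -0.22 without KP 8, -0.36 without KPH2 2 and -0.025 without KPH2 4. It was 0.25 with the skeletal muscle score in the model, so its sign rested on single tumours and on the model. The part of Myc in the factor levels was not tested. With all 8 tumours the log2 fold change of Myc was 0.72 ± 0.51 (edgeR adjusted p = 0.543).

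**Figure D3:**
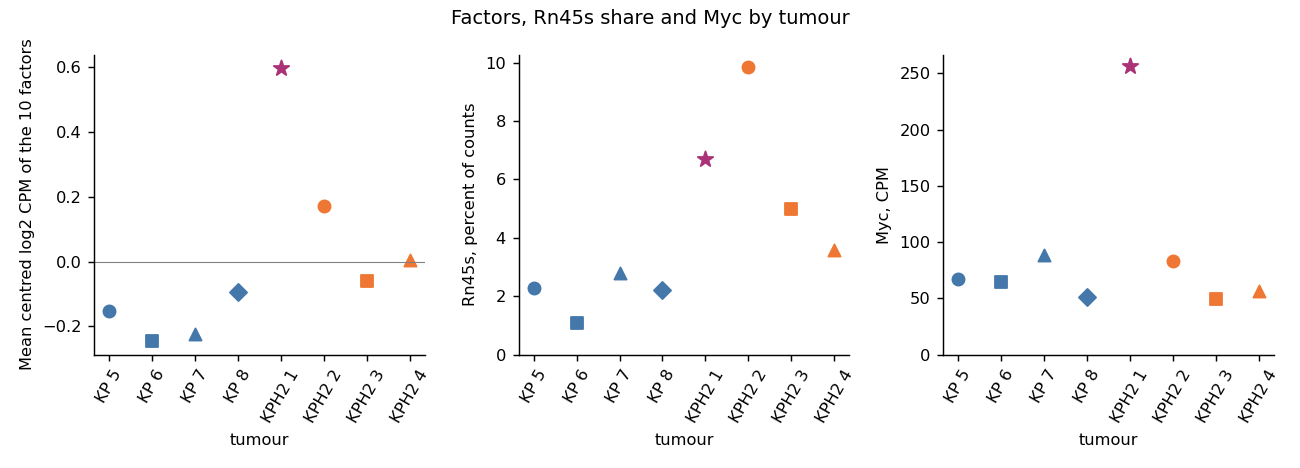
Mean centred log2 CPM of the 10 factors (left), Rn45s as a percent of counts (middle) and Myc CPM (right) in each tumour along the horizontal axis, with KP in blue, KPH2 2 to KPH2 4 in orange and KPH2 1 as a purple star. KPH2 1 stands highest for the factors (0.60) and Myc (256 CPM), and KPH2 2 for Rn45s (9.83%).

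Levels were compared between the factors only after dividing CPM by the length of the coding sequence, which leaves out differences in untranslated length and in the share of sequence that could be counted. Npm1 was the highest at 609 ± 33.8 CPM per kb of coding sequence (SD, n = 4 KP tumours), followed by Ncl at 183 ± 27.4. Nop58, Nop56 and Dkc1 had 55.0 ± 8.25, 52.7 ± 3.78 and 49.5 ± 5.82, which as measured did not differ beyond their spread. Pes1 had 39.5 ± 2.14, and its highest KP tumour reached the lowest value of Dkc1. Nolc1 had 32.6 ± 3.21, Wdr12 27.9 ± 4.95 and Bop1 22.2 ± 2.66 CPM per kb, with the KP values of Wdr12 overlapping those of both neighbours. Fbl was measured at 17.9 ± 1.15, but since much of its sequence is shared with other loci, its place among the factors is not known, and the values of Nop56 and Npm1 may also be too low. In the 3 KPH2 tumours the measured values per kb ran from 642 ± 28.5 for Npm1 to 23.2 ± 2.98 for Fbl. Fbl, Wdr12 and Bop1 were also the factors with the fewest counts over the 8 tumours (1784, 3510 and 4382).

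Other genes of the pathway were taken from 4 fixed lists, and none of their members was called by edgeR over 7 or 8 tumours. At an unadjusted p under 0.05 over 7 tumours, 1 snoRNP partner, 4 small-subunit factors, 2 large-subunit factors and 2 polymerase I genes were higher in KPH2, and 0 were lower, where 8.5% of all genes were higher and 9.26% lower at that level. Of 16 snoRNP partners, the remaining core proteins and assembly factors of the 2 particle classes with the nucleolar chaperones, 14 had positive log2 fold changes over 7 tumours, with a median of 0.14. Npm3, a nucleoplasmin-family chaperone, had the smallest p among positive ones, with 18.5 to 35.6 CPM in KP, 34.6 to 41.4 in the 3 KPH2 tumours and 49.4 in KPH2 1 (log2 fold change 0.55 ± 0.22, edgeR adjusted p = 0.241). Znhit6, a box C/D assembly factor, had the smallest p among negative ones, with 26.2 to 33.3 CPM in KP, 21.8 to 28.9 in KPH2 2 to KPH2 4 and 28.1 in KPH2 1 (log2 fold change -0.22 ± 0.17, edgeR adjusted p = 0.556).

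Of 35 small-subunit processing factors, 26 were positive, with a median log2 fold change of 0.13. Noc4l, of the small-subunit pathway, was at 18.2, 18.1, 20.4 and 19.9 CPM in KP 5 to KP 8, at 27.3, 28.8 and 27.2 CPM in KPH2 2 to KPH2 4 and at 27.9 in KPH2 1, so the groups did not overlap and KPH2 1 was level with its group. Its log2 fold change was 0.53 ± 0.14 (edgeR adjusted p = 0.0994), and it passed the threshold in DESeq2 (adjusted p = 0.0430) and in limma on the rlog values (adjusted p = 0.0390). It was the 1 gene called of these 35 by either, where DESeq2 called 5.4% of all genes and limma 0.787%. Pwp2, a scaffold of the small-subunit processome, had 43.4 to 45.8 CPM in KP, 31.3 to 48.8 in the 3 KPH2 tumours and 59.9 in KPH2 1 (log2 fold change -0.24 ± 0.18, edgeR adjusted p = 0.552). Of 43 large-subunit assembly factors, 34 were positive, with a median of 0.16. Ddx27, an RNA helicase that acts with PeBoW, had 50.5 to 55.7 CPM in KP, 62.1 to 67.4 in the 3 KPH2 tumours and 71.9 in KPH2 1, with no overlap (log2 fold change 0.32 ± 0.13, edgeR adjusted p = 0.225). Rpf1, also of the large-subunit pathway, had 28.6 to 50.7 CPM in KP, 27.3 to 31.5 in the 3 KPH2 tumours and 39.1 in KPH2 1 (log2 fold change -0.38 ± 0.21, edgeR adjusted p = 0.388).

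RNA polymerase I itself, with its initiation factors, gave 10 positive values of 15 and a median of 0.08. Ubtf, which opens rDNA for transcription, was at 125, 102, 133 and 134 CPM in KP 5 to KP 8, at 166, 185 and 181 CPM in KPH2 2 to KPH2 4 and at 209 in KPH2 1. The groups did not overlap, and the log2 fold change was 0.52 ± 0.14 (edgeR adjusted p = 0.110, DESeq2 adjusted p = 0.0400). DESeq2 called 1 of the 15 polymerase I genes, 0 of the 16 snoRNP partners and 0 of the 43 large-subunit factors, against 5.4% of all genes. With limma on the rlog values, 0 of the 15 were called. Taf1d, a subunit of the promoter selectivity factor, had 38.7 to 73.9 CPM in KP, 39.1 to 58.0 in the 3 KPH2 tumours and 84.4 in KPH2 1 (log2 fold change -0.29 ± 0.25, edgeR adjusted p = 0.606). Single tumours moved the medians of 2 lists by over 1.5 times. Without KPH2 2 the median was 0.04 for the polymerase I genes and 0.08 for the snoRNP partners, and without KPH2 3 it was 0.21 for the latter. With the muscle score in the model, the medians were 0.30 for the small-subunit, 0.25 for the large-subunit and 0.16 for the polymerase I genes. Over all 8 tumours the medians were 0.25, 0.25, 0.28 and 0.20 for the 4 lists in this order, beside 0.38 for the 10 factors.

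KPH2 1 was the highest tumour for 9 of the 16 snoRNP partners, 29 of the 35 small-subunit factors, 33 of the 43 large-subunit factors and 12 of the 15 polymerase I genes. Of all genes tested, 17.7% were highest in it. The median ratio of KPH2 1 to the mean of the other 7 was 1.37, 1.39, 1.38 and 1.43 in the 4 lists, beside 1.68 for the factors. The highest log2 ratios in these lists were 1.23 for Naf1, an H/ACA assembly factor, 1.19 for Rrp1b, of the large-subunit list, and 1.13 for Polr1b, the second largest polymerase I subunit. The lowest were -0.38 for Rpap3, a co-chaperone, and -0.23 for Ddx54, a nucleolar helicase. For 10 proliferation markers the median ratio was 1.10, and 2 of them were highest in this tumour, near the 17.7% of all genes.

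**Figure D4:**
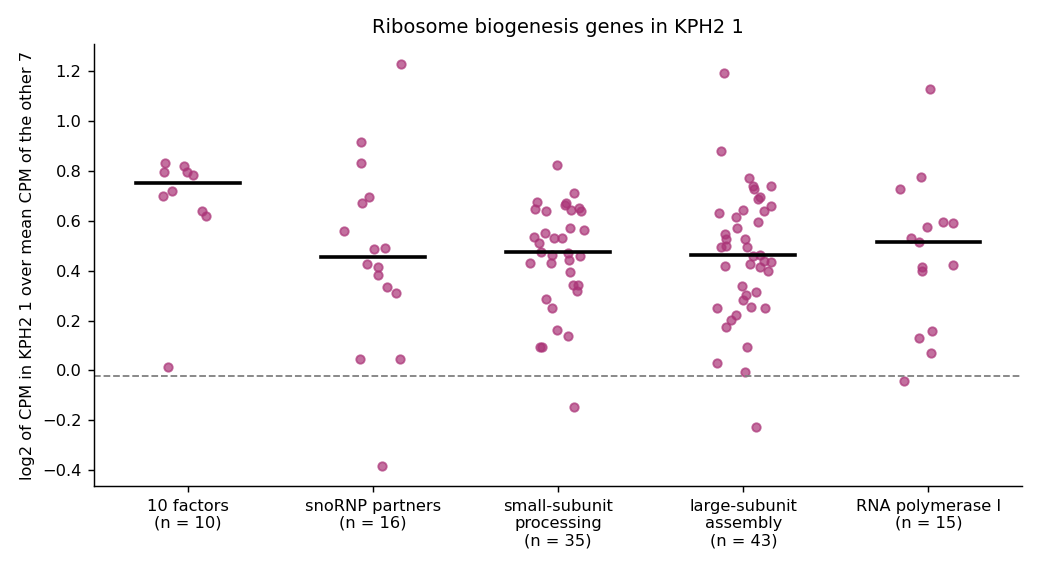
Log2 ratio of CPM in KPH2 1 to the mean of the other 7 tumours (vertical axis) for each gene of the 10 factors and of the 4 pathway lists, with list medians as black bars and the median of all genes tested as a dashed line. The factors lie between 0.62 and 0.83 except Bop1 at 0.01, and the other lists have medians from 0.46 to 0.51.

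Markers of other cell types were measured in the same tumours. Summed CPM of 30 skeletal muscle genes was 1844 to 3376 in KP, 4363 to 19742 in KPH2 2 to KPH2 4 and 1526 in KPH2 1. All 30 had positive log2 fold changes over 7 tumours (median 2.20), and none was at 0 in all tumours. By edgeR, 3 of them were called higher in KPH2, against 1.24% of all genes tested, and 29 were higher at an unadjusted p under 0.05, against 8.5%. The 10 macrophage markers and the 6 endothelial markers all had negative values (medians -0.55 and -0.58), with none called by edgeR and 4 and 3 of them lower at an unadjusted p under 0.05, against 9.26% of all genes tested. Macrophage sums were 2414 to 4424 CPM in KP, 1789 to 2681 in KPH2 2 to KPH2 4 and 2302 in KPH2 1, and endothelial sums were 262 to 485, 228 to 255 and 190. T cell markers summed to 8.14 to 23.0, 10.8 to 18.9 and 4.15 CPM, with overlapping groups and none of 5 called by edgeR. Of 7 mesenchymal genes, 2 had positive and 5 negative values, and 1 was called lower, against 0.72% of all genes. Their sums overlapped, at 12303 to 24726 CPM in KP, 9867 to 17561 in KPH2 2 to KPH2 4 and 10657 in KPH2 1. With the muscle score in the model, the median log2 fold change of the factors was 0.13, and Fbl and Nolc1 were both at 0.44. Ncl, Nop56 and Nop58 were at 0.31, 0.20 and 0.19. Bop1, Npm1, Pes1, Wdr12 and Dkc1 were at 0.07, 0.03, 0.03, 0.00 and -0.03. In whole tumours, fewer cells of a type and less RNA per cell cannot be told apart, and the part of cell makeup in the factor levels was not tested.

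The genes most like the factors across tumours were ranked by Pearson's r with their mean centred log2 CPM over the 8 tumours, among 14795 other genes. These were Wdr75 (r = 0.990), a small-subunit processing factor, Pfas (0.987), a purine synthesis enzyme, Snora43 (0.986), a box H/ACA snoRNA, G3bp1 (0.984), a stress granule protein, and Sfxn1 (0.982), a mitochondrial serine carrier. Over the 7 tumours without KPH2 1 their r was 0.958, 0.971, 0.945, 0.959 and 0.923. Wdr75 was at 69.8 to 77.5 CPM in KP, 77.2 to 90.7 in KPH2 2 to KPH2 4 and 121 in KPH2 1. The median r over 8 tumours was 0.674, 0.664, 0.688 and 0.697 for the snoRNP, small-subunit, large-subunit and polymerase I lists, against 0.015 over all other genes, and without KPH2 1 it was 0.484, 0.371, 0.415 and 0.319. Values in a tumour share 1 library and its scaling, so these r are descriptive.

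Several of the factors also host snoRNAs in their introns, which guide the modification of rRNA. RefSeq places 12 snoRNA genes inside Ncl, Nop56, Nop58 and Dkc1, of which 6 had a row in the counts, with totals from 14 to 110 counts over the 8 tumours. Snora75, inside Ncl at chr1:86351170-86351285, alone passed the filter, with 23, 9, 7 and 6 counts in KP 5 to KP 8, 13, 15 and 12 in KPH2 2 to KPH2 4 and 25 in KPH2 1. Its log2 fold change was 0.26 ± 0.47 (edgeR adjusted p = 0.832), with an interval from -0.82 to 1.34, so no difference was detectable at these counts. Ncl itself spans chr1:86344719-86359455 (minus strand), Fbl chr7:28168893-28179269 (plus strand) and Nolc1 chr19:46075847-46085543 (plus strand) on GRCm38.p6.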

How the data were processed

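RNA from FFPE sections of 8 tumours was sequenced by the study as 100-base single reads after Ribo-Zero Gold depletion, with TruSeq Stranded libraries. Per the labels and the study's methods, the authors aligned reads to GRCm38 with STAR 2.4 and deposited raw counts of unique alignments per RefSeq gene from htseq-count 0.6.1, without normalization. The authors also deposited rlog values (log2 scale, DESeq2 1.6) in tables over 7 and 8 tumours, used here only for a limma alternative.

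The raw counts were tested with edgeR 4.0.16 in R 4.3.3 (TMM, filter with minimum count 10 and minimum total count 15, robust quasi-likelihood test, no covariates) over KP 5 to KP 8 and KPH2 2 to KPH2 4, with Benjamini-Hochberg adjustment over all genes tested and a threshold of 0.05. DESeq2 1.42.0 and limma 3.58.1 gave alternatives. Log2 CPM used a prior count of 2. Single values were compared by exact permutation tests. The edgeR fit was tested on simulated counts, with changes larger than those fitted for the factors. The labels do not state that each tumour came from a separate mouse, so p-values measure the spread between these tumours. No library was a copy of another. Replicate numbers were not shared between groups, so no pairing was made. The factors, the pathway and marker lists and the rules were chosen with earlier results of these data known. Named were all 10 factors, Rn45s, Rn18s, Epas1, Myc, the gene with the smallest p in each direction of each pathway list, the hosted snoRNA that passed the filter and the 5 genes most like the factors. Rn18s, Scx and the extremes of the KPH2 1 ratios were added after their values were seen. Promoters and positions came from RefSeq on GRCm38.p6, with 7 of the 10 factors matched to a promoter, and transcripts and coding lengths from GENCODE. A further allele that both groups carry is not reported here.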

Additional observations from a re-analysis of the deposited data

Results flagged for a closer look

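In groups of 4 tumours, 6 of 24 sets of values for the factors, Rn45s and Myc had 1 tumour far from the rest by Dixon's criterion, where chance gives about 1 in 20. For KPH2 1 these were Npm1 at 898 CPM, Nop58 at 167, Dkc1 at 137 and Myc at 256, each the highest of the 4 KPH2 tumours. In the KP group they were Ncl at 301 CPM in KP 6 and Fbl at 15.8 CPM in KP 7, each the lowest of the 4. The 4 values of KPH2 1 come from 1 library and are not independent of each other. That tumour was already absent from the authors' 7-tumour table, so its flags are no separate finding.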

How the results depend on the processing

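No factor was called in the comparison of KP with KPH2 under any of the 17 alternatives, and 169 of the 170 refitted log2 fold changes were positive, with adjusted p from 0.174 to 0.9995. The exception was Dkc1, at -0.031 with the skeletal muscle score as covariate, where the cause was not tested. The median of the factors was 0.38 with all 8 tumours, in place of 0.21, and ran from 0.11 to 0.27 when 1 tumour was left out, with the lowest value without KPH2 2. DESeq2's size factors, upper-quartile scaling and both changes of filter kept it between 0.20 and 0.22, and it was 0.13 both by limma on rlog values and with the muscle score.

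The number of genes called, 292, depended on the setting: 1 with all 8 tumours, 2 with the muscle score, 117 by limma on rlog values, 1175 by DESeq2, and 55 to 349 when 1 tumour was left out, the lowest without KPH2 2. The difference in Rn45s share stayed positive, at 2.20 to 5.32 percentage points when 1 tumour was left out, where the exact test cannot reach the threshold with so few tumours. Rn18s in place of Rn45s was chosen after seeing the data. No paired analysis was possible because the groups share no replicate numbers. Low counts limit the hosted snoRNAs, of which 1 of 6 passed the filter, and the reason for the low counts was not tested.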
